A study of Mus musculus with 32 samples.

Results

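Pericytes and smooth muscle cells, together called mural cells, wrap the outside of blood vessels and were followed here through 9 marker genes (Rgs5, Cspg4, Mcam, Kcnj8, Abcc9, Acta2, Tagln, Myh11 and Des) out of the 54446 genes in the count tables. The genes were chosen by name as markers of these cells, 5 of them for pericytes and 4 for the contractile and filament proteins of smooth muscle. RNA was sequenced from 32 tumors of BNL-MEA, a mouse liver cancer line injected under the capsule of the left liver lobe of BALB/c mice, so every tumor grew inside liver and every group shared the same line and strain. The tumors formed 10 groups in 3 experiments, each with its own vehicle group. In the dose experiment 4 tumors received vehicle, 3 received 5 mg/kg/day of regorafenib, called the low dose, and 3 received 20 mg/kg/day, called the high dose. In the DC-101 experiment 4 tumors received vehicle, 3 the low dose of regorafenib, and 3 DC-101, an antibody that blocks mouse VEGFR2, injected at 800 μg on days 1, 3 and 5. In the experiment with an antibody against PD1, groups of 3 received vehicle, the low dose of regorafenib, anti-PD1, or both agents together. Regorafenib, given by gavage, is an inhibitor of several kinases that include the VEGF receptors and the PDGF receptors. The ages of the mice were not given in the sources used here, and nothing in the labels ties a replicate number to a shared cage or day.

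Endothelial cells recruit mural cells by releasing PDGF-B, which acts on the receptor Pdgfrb on the pericyte, and the mural cells in turn steady the vessel and set its tone. In the liver the same place around the sinusoids is held by hepatic stellate cells, which share desmin and several pericyte genes and turn on smooth muscle actin when they become myofibroblasts. No marker of the set belongs to mural cells alone. Mcam is also made by endothelial cells, Cspg4 by some tumor and progenitor cells, Acta2 by activated fibroblasts, and Des by skeletal muscle. In bulk tumor RNA, fewer cells of a type and less RNA per cell cannot be told apart.

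All 9 genes were counted in every library and all 9 passed the filter on low counts in each experiment. Total counts per library were between 16767130 and 27693689. Pdgfrb, the receptor that defines mural cells and many fibroblasts, had at least 512 counts in every library, and Notch3, a receptor of mural cells, had at least 7. The mean level of 20 hepatocyte genes differed widely between tumors, from 0.09 to 12.14 log2 CPM. How much of this RNA came from the surrounding liver and how much from the liver cancer line was not tested. Vehicle replicate 4 of the DC-101 experiment stood apart: it had by far the highest level of skeletal muscle genes, the lowest hepatocyte list, and the highest endothelial list and Mcam of the 32, and the member values it touched most are given with and without it. Unless given per length, a level is in log2 CPM, the log2 of a gene's counts relative to the total of its library, after TMM scaling within an experiment. A change is a log2 difference between groups with its SE, tested by edgeR against all genes of the fit and called past the threshold at an adjusted p under 0.05.

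In the 11 vehicle libraries, Acta2, the smooth muscle form of actin, was the most abundant of the 9 genes per length of transcript, at a mean of 7.23 log2 RPKM (SD 0.35). Mcam, an adhesion protein of pericytes and endothelium, followed at 4.49 (SD 0.52), and Tagln, an actin-binding protein of smooth muscle, at 4.2 (SD 0.93). Below them came Rgs5, a brake on G protein signaling in pericytes, at 2.74 (SD 1.18), the proteoglycan NG2 gene Cspg4 at 2.61 (SD 0.79), and Kcnj8, the pore of the potassium channel of mural cells, at 2.57 (SD 0.46). Abcc9, which encodes the partner subunit of that channel, had 1.61 (SD 0.54), Des, an intermediate filament, 1.54 (SD 1.18), and Myh11, the myosin heavy chain of mature smooth muscle, -1.21 (SD 1.0). Of the neighbors in this order, Acta2 exceeded Mcam, Kcnj8 exceeded Abcc9, and Des exceeded Myh11 in 11 of 11 libraries. The other neighbors changed places from library to library: Mcam exceeded Tagln in 6 of 11, and Rgs5 exceeded Cspg4 in 5 of 11. Myh11 was thus far below Acta2 in every vehicle tumor.

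The genes lie on 5 chromosomes of the mouse genome (GRCm38). Kcnj8 (chr6:142564837-142571614) and Abcc9 (chr6:142587862-142702315) are neighbors on the minus strand and encode the parts of 1 channel. Mcam, Tagln and Cspg4 are on chromosome 9, Rgs5 and Des on chromosome 1, Myh11 on chromosome 16 and Acta2 on chromosome 19. Tagln overlaps genes on the opposite strand, Pcsk7 by 108 bases and Gm48529 by 3627 bases, with at most 974 and 372 counts in any library. The strand setting of the counting was not given in the sources used here, so it is not known whether reads from the shared bases were counted for Tagln.

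The promoters of Acta2 and Mcam are shown because, with low-dose regorafenib, Mcam libraries lay below their vehicle group in every experiment and Acta2 libraries lay above it in some and below it in another. Both run from 250 bases before to 50 bases after the RefSeq start (GRCm38.p6), Acta2 at chr19:34255324-34255623 on the minus strand and Mcam at chr9:44134408-44134707 on the plus strand. Capitals in Acta2 mark sequences that resemble the CArG box, the site bound by serum response factor (SRF), the regulator of contractile genes, and capitals in Mcam mark the cyclic AMP response element TGACGTCA.
Acta2: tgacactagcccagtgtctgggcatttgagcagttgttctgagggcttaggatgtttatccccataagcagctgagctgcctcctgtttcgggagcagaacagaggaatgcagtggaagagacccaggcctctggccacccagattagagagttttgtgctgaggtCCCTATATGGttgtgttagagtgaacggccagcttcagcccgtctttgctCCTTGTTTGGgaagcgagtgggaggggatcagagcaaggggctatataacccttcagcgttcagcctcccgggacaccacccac
Mcam: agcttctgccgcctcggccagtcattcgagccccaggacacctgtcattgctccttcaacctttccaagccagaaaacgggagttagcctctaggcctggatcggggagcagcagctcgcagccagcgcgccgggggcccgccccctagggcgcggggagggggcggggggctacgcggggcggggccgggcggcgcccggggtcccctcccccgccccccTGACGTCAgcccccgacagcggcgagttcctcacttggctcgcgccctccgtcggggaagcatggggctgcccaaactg
The search covered both strands. The exact CArG box (CC, 6 letters that are A or T, GG) was in 0 of the 7 members with a promoter sequence and in 1.63% of 32851 promoters. The contractile genes Tagln and Myh11 had no promoter sequence in the sources used here, so they were not searched. With at least 5 of the 6 inner letters A or T, Acta2 held 2 such elements, CCCTATATGG from position -84 and CCTTGTTTGG from position -34 relative to the start, while 9.98% of promoters held at least 1 and 0.822% at least 2. The element TGACGTCA, searched for after the Mcam sequence had been read, lay at position -29 in Mcam and in 1.79% of promoters. These matches describe letters in a window and say nothing of whether a factor was bound.

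Low-dose regorafenib was the treatment given in all 3 experiments, and across them Mcam and Kcnj8 were lower in treated tumors. Mcam was 2.44-fold lower (log2 change -1.29, SE 0.16, 9 treated against 11 vehicle libraries, adjusted p = 0.000229, edgeR with the experiment as a term). Kcnj8 was 3.43-fold lower (-1.78, SE 0.30, adjusted p = 0.00337, edgeR). These 2 of 9 genes compare with 1.52% of 17238 genes past the threshold in either direction and 0.951% in the lower direction. Without the DC-101 experiment Kcnj8 lost its call (-2.0, adjusted p = 0.0574), while Mcam kept it (-1.08, adjusted p = 0.0184). No vehicle library was shared between the experiments.

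Mcam in the vehicle tumors of the dose experiment was 5.84, 6.52, 6.18 and 6.60 log2 CPM, and under low-dose regorafenib 5.12, 5.43 and 5.14. The vehicle values in the DC-101 experiment were 6.73, 6.28, 6.11 and 7.21 and the low-dose values 5.25, 4.89 and 4.77. The anti-PD1 experiment gave 5.69, 5.99 and 5.38 against 4.92, 4.53 and 4.35. Every treated library lay below every vehicle library of its own experiment.

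Kcnj8 in the dose experiment was 3.08, 4.18, 3.57 and 3.91 with vehicle and 0.66, 1.98 and 2.96 with the low dose. The DC-101 experiment gave 3.93, 3.78, 3.44 and 4.09 against 2.07, 1.52 and 3.34, and in the third experiment 4.53, 4.67 and 3.97 against 2.03, 2.43 and 1.17. Again no treated library reached its vehicle group, although the gap was narrow in the dose and DC-101 experiments. Treated libraries lay below all vehicle libraries in each of the 3 experiments for 2 of 9 members, and for 0.406% of all genes tested.

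**Figure D1:**
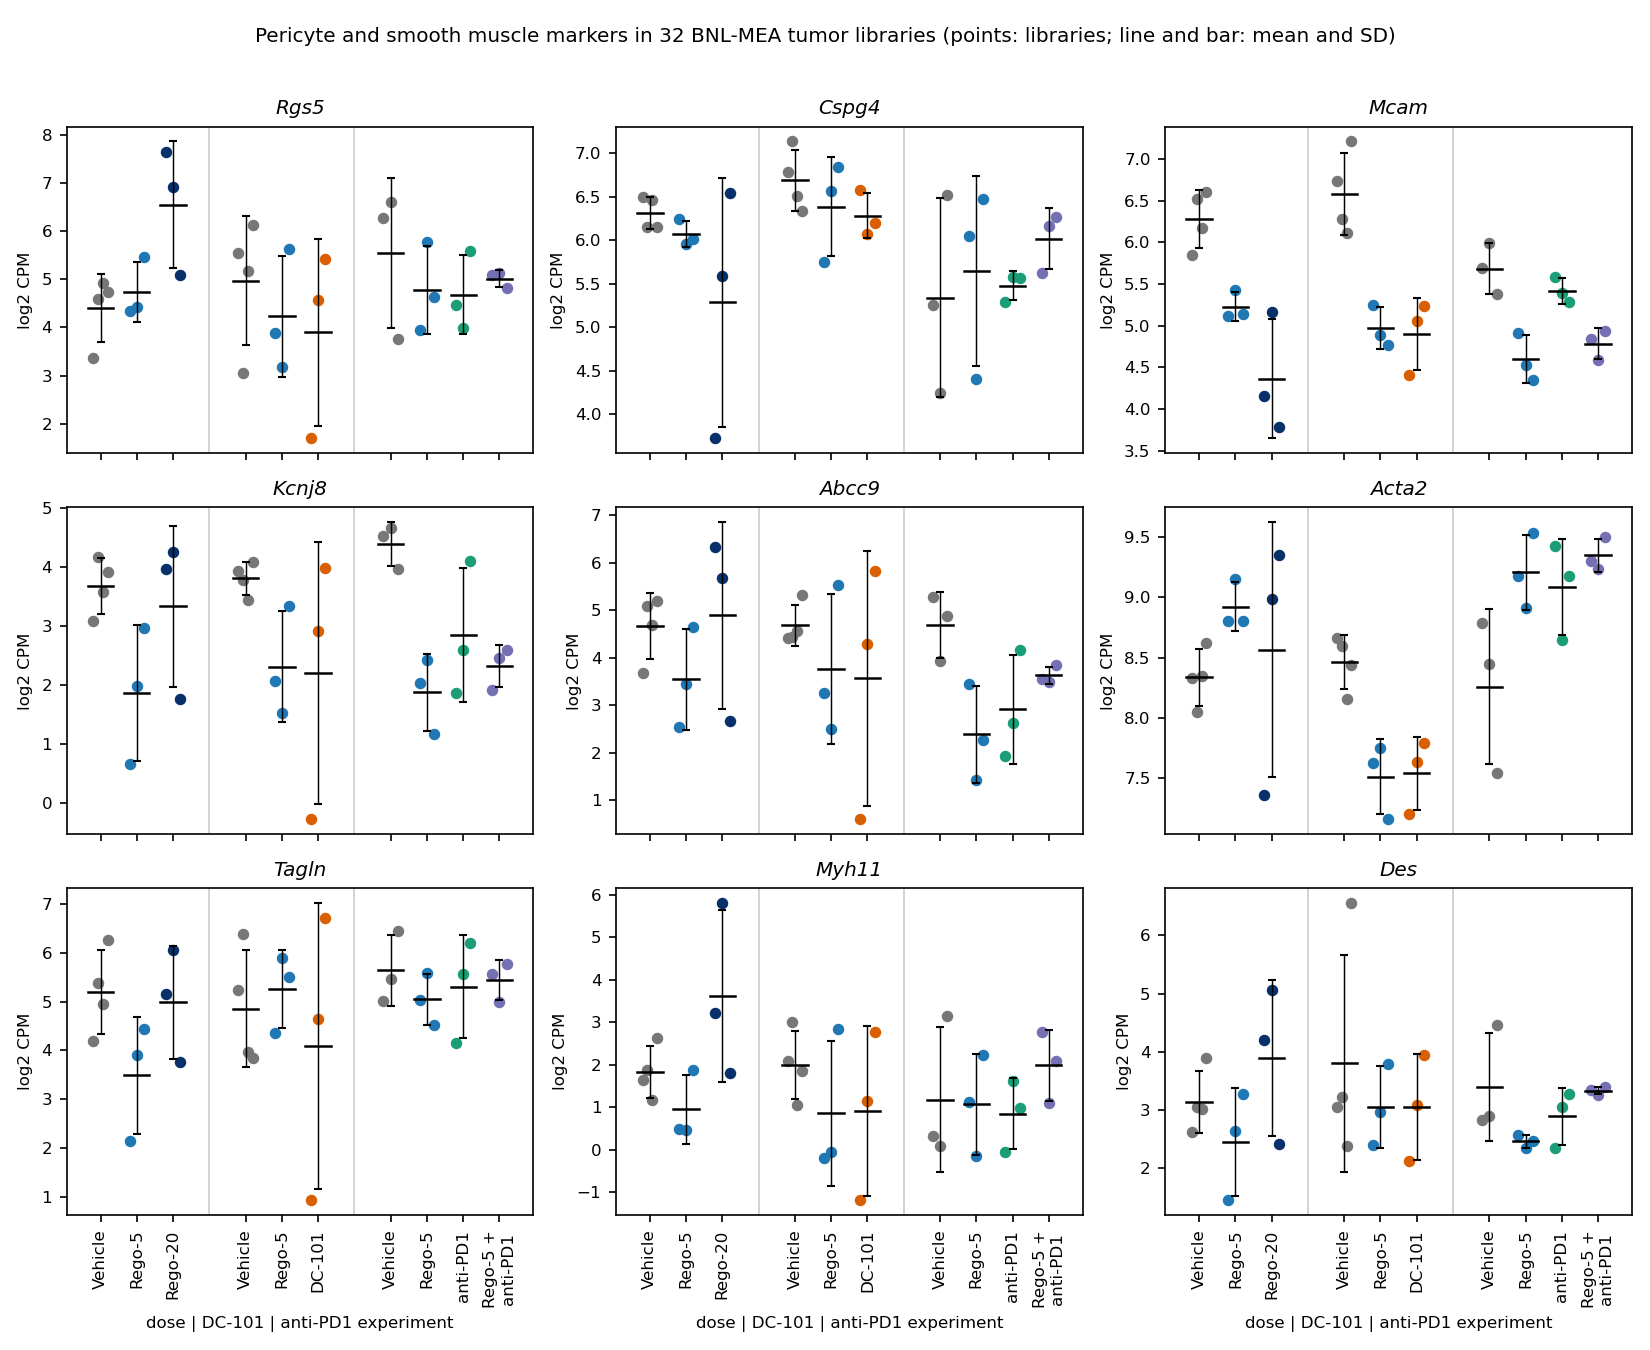
Level of each marker gene (vertical axes, log2 CPM) in the 32 tumor libraries, by treatment group and experiment (horizontal axes; Rego-5 and Rego-20 are regorafenib at 5 and 20 mg/kg/day). Points are libraries, lines the group mean and bars the SD; Mcam and Kcnj8 under Rego-5 lie below the vehicle points in each of the 3 experiments, while Acta2 lies above them in 2 experiments and below them in the DC-101 experiment.

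The other 7 genes did not pass the threshold in the fit over the 3 experiments. Abcc9, the partner of Kcnj8 in the channel, had a change of -1.13 (SE 0.41, adjusted p = 0.172, edgeR) and Des of -1.15 (SE 0.47, adjusted p = 0.233). Both had an unadjusted p under 0.05, as did 15.6% of all genes. Abcc9 passed once 1 library, regorafenib replicate 3 in the DC-101 experiment, was left out (-1.61, adjusted p = 0.0201, edgeR), where 290 of 17738 genes did. Tagln (-0.69, SE 0.41), Myh11 (-0.67, SE 0.48) and Rgs5 (-0.44, SE 0.43) had changes below 0 that were within 2 SE of 0. Cspg4 was at -0.11 (SE 0.25) and Acta2 at 0.17 (SE 0.24). The median change over the 9 genes was -0.69, where the median over all genes tested was 0.02.

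Mcam moved with the endothelial genes. Of 14 endothelial genes, 9 fell across the 3 experiments, where 0.951% of all genes did (median change -1.20), led by the tight junction gene Cldn5 (-2.46), the transcription factor Erg (-1.43), Emcn (-1.40) and Esam (-1.39). Over the 32 libraries, after subtraction of each group's mean, the deviation of Mcam had Pearson's r of 0.80 (Spearman's rho 0.69) with that of the endothelial list, given as a description of libraries that share their composition. The endothelial list had group means between 4.48 and 4.81 log2 CPM with vehicle and between 3.33 and 3.84 with the low dose. The part of endothelial RNA in the fall of Mcam was not tested. For Kcnj8, r with the endothelial list was 0.68 and with the hepatic stellate cell list 0.73. No gene of the stellate list passed the threshold across the 3 experiments (0 of 12, edgeR, 3 at unadjusted p under 0.05 as for 15.6% of all genes, median change -0.07).

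Of 20 further pericyte and mural genes, 17 were tested and 1 fell across the experiments, where 0.951% of all genes did, the transcription factor gene Tbx18 (-0.50, adjusted p = 0.0467, edgeR), with a median change of -0.50 over the list. Notch3 (-1.53) and Rgs4 (-1.54), named after their values were seen, were short of the threshold. Of 20 further contractile genes, 19 were tested and none passed (0 with edgeR, 4 at unadjusted p under 0.05 where 15.6% of all genes were, median -0.12), the largest changes being in Pcp4l1 (0.95) and Synpo2 (0.68). Among SRF and its cofactors, 0 of 4 tested genes passed (edgeR, 1 at unadjusted p under 0.05 against the same 15.6%), and Klf4, a repressor of the contractile program, had the largest change (-0.69).

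**Figure D2:**
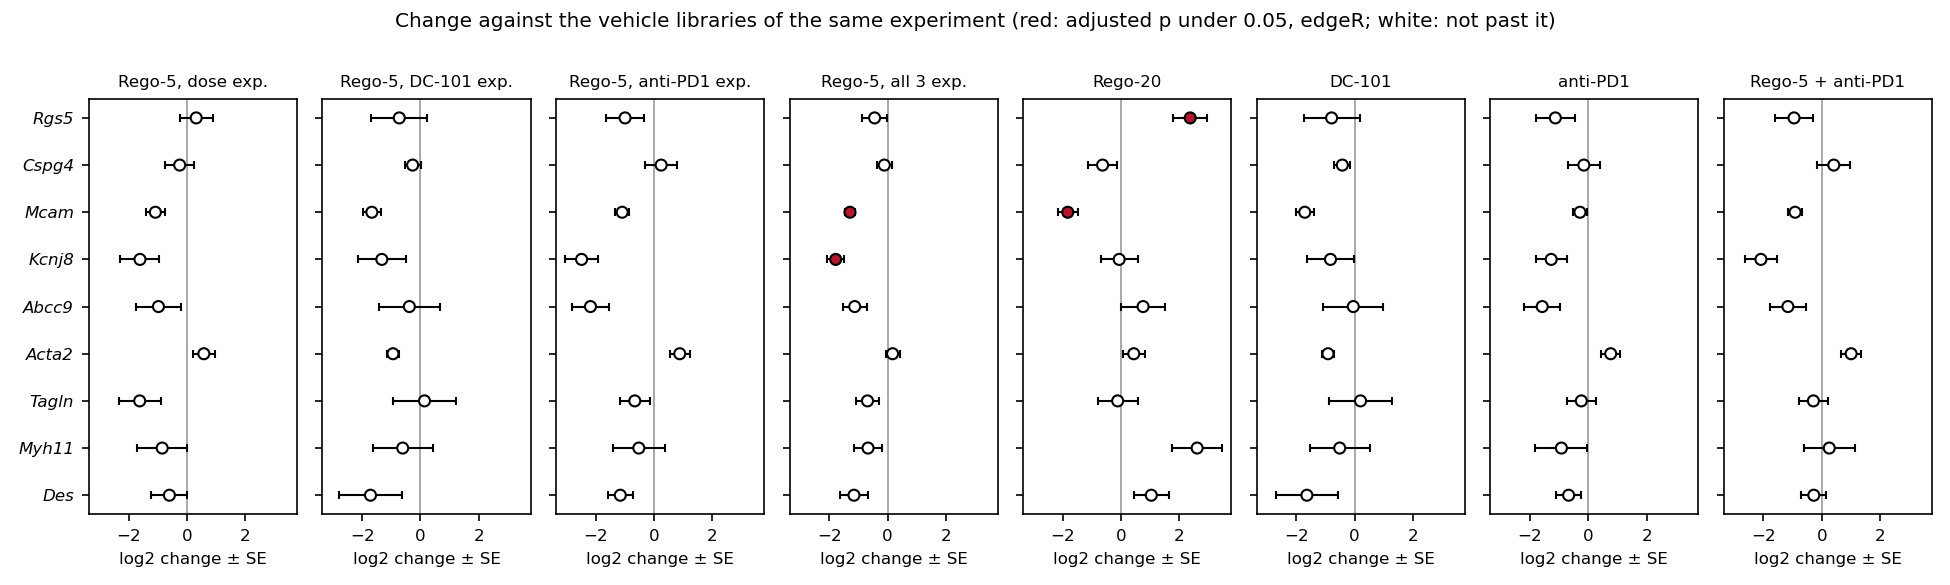
Log2 change of each gene (horizontal axes, with its SE as bars) for each treatment against the vehicle libraries of the same experiment; red points have an adjusted p under 0.05 with edgeR and white points do not. Mcam and Kcnj8 pass for Rego-5 over all 3 experiments, Rgs5 and Mcam pass for Rego-20, and Acta2 has changes on both sides of 0.

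Within single experiments the low dose moved no member past the threshold. In the dose experiment 0 of 9 genes passed with edgeR (0% of 16525 genes), 0 with limma-voom and 0 with DESeq2, and Mcam (-1.08), Kcnj8 (-1.61) and Tagln (-1.62) had an unadjusted p under 0.05, as did 4.94% of all genes. Mcam, Kcnj8 and Acta2 were the 3 genes whose groups did not overlap there (13.9% of all genes). With the low dose in the DC-101 experiment, 0 of 9 passed with edgeR (0.0248% of 16138 genes) and 0 with limma-voom. There, DESeq2 called 1097 of 16138 genes, Mcam (-1.66) and Acta2 (-0.93) among them, the same 2 members that had an unadjusted p under 0.05 with edgeR (17.1% of all genes did), and these and Kcnj8 were the 3 without overlap (16.4%). In the anti-PD1 experiment 0 of 9 passed with edgeR (0% of 16615 genes) and 0 with limma-voom. DESeq2 called 435 of 16615 genes, 3 of them members, Kcnj8 (-2.49), Abcc9 (-2.18) and Mcam (-1.09). With edgeR, 5 members had an unadjusted p under 0.05 (11.8% of all genes), namely these 3, Des (-1.15) and Acta2 (0.88), which were also the 5 without overlap (14% of all genes). Des there was at -0.40 without vehicle replicate 3. Abcc9 in that experiment was 5.27, 3.92 and 4.88 log2 CPM with vehicle and 3.46, 1.44 and 2.28 with the low dose, with no overlap.

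Acta2 did not move in 1 direction. In the dose experiment it was 8.33, 8.05, 8.34 and 8.63 log2 CPM with vehicle and 8.81, 9.16 and 8.81 with the low dose. In the DC-101 experiment it was 8.66, 8.60, 8.16 and 8.44 against 7.63, 7.75 and 7.16, and in the anti-PD1 experiment 8.79, 8.45 and 7.54 against 9.18, 8.91 and 9.53. Treated libraries were thus above all vehicle libraries in 2 experiments and below all of them in the other. The changes were 0.58 (SE 0.38), -0.94 (SE 0.20) and 0.88 (SE 0.33). The difference between the experiments had an unadjusted p of 0.000269 and an adjusted p of 0.377 with edgeR, so it did not pass the threshold, and no member did (0 of 9, 0% of all genes, 1 at unadjusted p under 0.05 as for 9.83% of all genes, 0 with limma-voom). Of the members, DESeq2 called this difference for Acta2 alone (adjusted p = 0.00678), among 111 of 17238 genes. Of 18 further contractile genes tested in the DC-101 experiment, none passed with the low dose (0 with edgeR), and 6 had an unadjusted p under 0.05 in the lower direction, as did 9.56% of all genes.

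With high-dose regorafenib, Rgs5 rose 5.16-fold (2.37, SE 0.58, adjusted p = 0.0399, edgeR) and Mcam fell 3.55-fold (-1.83, SE 0.34, adjusted p = 0.0265, edgeR). These 2 of 9 genes stand against 15.6% of 16525 genes past the threshold, 8.8% higher and 6.82% lower. The low-dose and high-dose groups were compared with the same 4 vehicle libraries.

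Rgs5 was 3.37, 4.59, 4.93 and 4.74 log2 CPM with vehicle and 7.64, 6.91 and 5.09 with the high dose, so the lowest treated tumor was just above the highest vehicle tumor. Mcam was 4.15, 5.17 and 3.78 with the high dose, below every vehicle tumor, and these were the 2 members without overlap, where 28.3% of all genes had none. Myh11 was 1.64, 1.88, 1.17 and 2.63 with vehicle and 3.22, 5.80 and 1.80 with the high dose (2.61, SE 0.85, adjusted p = 0.0583, edgeR), and the groups overlapped. Kcnj8 (-0.07, SE 0.63) and Tagln (-0.12, SE 0.68) were near 0, Abcc9 (0.75, SE 0.76), Acta2 (0.43, SE 0.38) and Des (1.03, SE 0.61) were above it and Cspg4 (-0.64, SE 0.49) below it, each short of the threshold.

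The 3 high-dose tumors did not look alike. Replicate 1 had the highest Rgs5 and Abcc9 (6.33) of all 32 libraries together with the highest hepatocyte list (12.14) and hepatic stellate cell list (5.52), and the lowest Cspg4 (3.72). Replicate 2 had the highest Myh11 (5.80) with the highest levels of the fibroblast list (8.51) and of the further contractile genes (4.74). Replicate 3 had the lowest Mcam (3.78), with Kcnj8 at 1.77, Abcc9 at 2.66 and the endothelial list at 2.93. With the hepatocyte list as a covariate, the change of Rgs5 was 0.81 (adjusted p = 0.279, edgeR) and that of Mcam -2.06 (adjusted p = 0.0515). The part of liver RNA in the rise of Rgs5 was not tested further.

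Leaving out 1 library at a time kept the change of Rgs5 between 1.75 and 2.75, with an adjusted p from 0.00802 to 0.0966 (edgeR), and it passed the threshold in 2 of 10 such fits, those without low-dose replicate 3 and without high-dose replicate 3. Mcam stayed between -2.33 and -1.60 and passed in 5 of 10. It was lost without any of the 4 vehicle libraries (adjusted p from 0.0626 to 0.0779) and without low-dose replicate 1 (0.053). Without high-dose replicate 3, 5 members passed, Rgs5 (2.75), Myh11 (3.10), Des (1.45), Mcam (-1.60) and Cspg4 (-1.40), as did 7030 of 17092 genes. Without high-dose replicate 1, Acta2 passed (0.85, adjusted p = 0.0406) beside Mcam, with 956 genes in all. Other fits shrank a change: Myh11 was at 0.77 (adjusted p = 0.386) and Des at 0.35 without high-dose replicate 2, Abcc9 at 0.063 without replicate 1 and Acta2 at 0.012 without replicate 3. DESeq2 on all libraries called 3 members, Rgs5 (2.4), Mcam (-1.80) and Myh11 (2.63), and 5275 of 16525 genes in all. Rgs5 also passed with DESeq2's size factors in edgeR but in none of the 6 other settings tried, and limma-voom called Mcam alone among the members. The number of all genes past the threshold was as unsteady, 2582 with every library and from 15 to 7030 with 1 library left out.

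Markers of other cell types were set beside these values, where 8.8% of all genes rose and 6.82% fell. Of 8 mesothelial genes, 6 rose, among them Upk3b (5.01) and Muc16 (4.72), and the list ranged from 2.42 to 4.76 log2 CPM in the high-dose tumors and from 0.32 to 1.11 with vehicle. Of 20 hepatocyte genes, 2 rose, Hpd (6.35) and Cyp2e1 (5.41), and all 20 had an unadjusted p under 0.05 (40.1% of all genes did). Of the 12 fibroblast genes, 2 rose, Fbln1 (3.54) and Dpt (3.14), and the changes of the list ran from -1.34 (Fap) to 3.54. Among the stellate genes, Angptl6 rose (2.38) while Hgf fell (-1.04). Of 14 endothelial genes, Emcn and Cldn5 fell (-1.86 each) and the list ran from there to 2.69 in Vwf, which did not pass (median -0.40). The part of these cell types in the member changes was not tested.

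Among further pericyte and mural genes, 2 of 16 tested rose with the high dose, where 8.8% of all genes rose: Rgs4 (1.90), a relative of Rgs5, and Ndufa4l2 (1.84), a mitochondrial protein of pericytes. Among further contractile genes 4 of 19 rose against the same 8.8%, the actin regulator Synpo2 (1.78), the myosin light chain Myl9 (1.60), its kinase Mylk (1.55) and Lmod1 (1.28). From the list of 5 genes of SRF and its cofactors, the cofactor Mrtfb rose (1.16), against the same 8.8%.

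The high dose was also set directly against the low dose. No member passed with edgeR (0 of 9, against 4.22% of all genes) or with limma-voom (0), and DESeq2 called 2, Myh11 (3.46) and Rgs5 (2.07), of 3059 genes called among 16525. Myh11 (3.45, SE 0.98), Rgs5 (2.05, SE 0.63) and Des (1.63, SE 0.67) had an unadjusted p under 0.05 with edgeR (29.3% of all genes), and all 9 genes overlapped between the groups (27.8% of all genes did not). Kcnj8 (1.54), Abcc9 (1.73) and Tagln (1.5) were also above 0, Mcam (-0.75), Cspg4 (-0.39) and Acta2 (-0.15) below it. High-dose replicates 2 and 3 decided this count. Without replicate 3, 5 members passed, Myh11 (3.95), Rgs5 (2.43), Abcc9 (2.19), Des (2.05) and Kcnj8 (1.95), as did 4488 of 17092 genes. Without replicate 2 only Mcam did (-1.27), with 573 of 16858 genes.

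**Figure D3:**
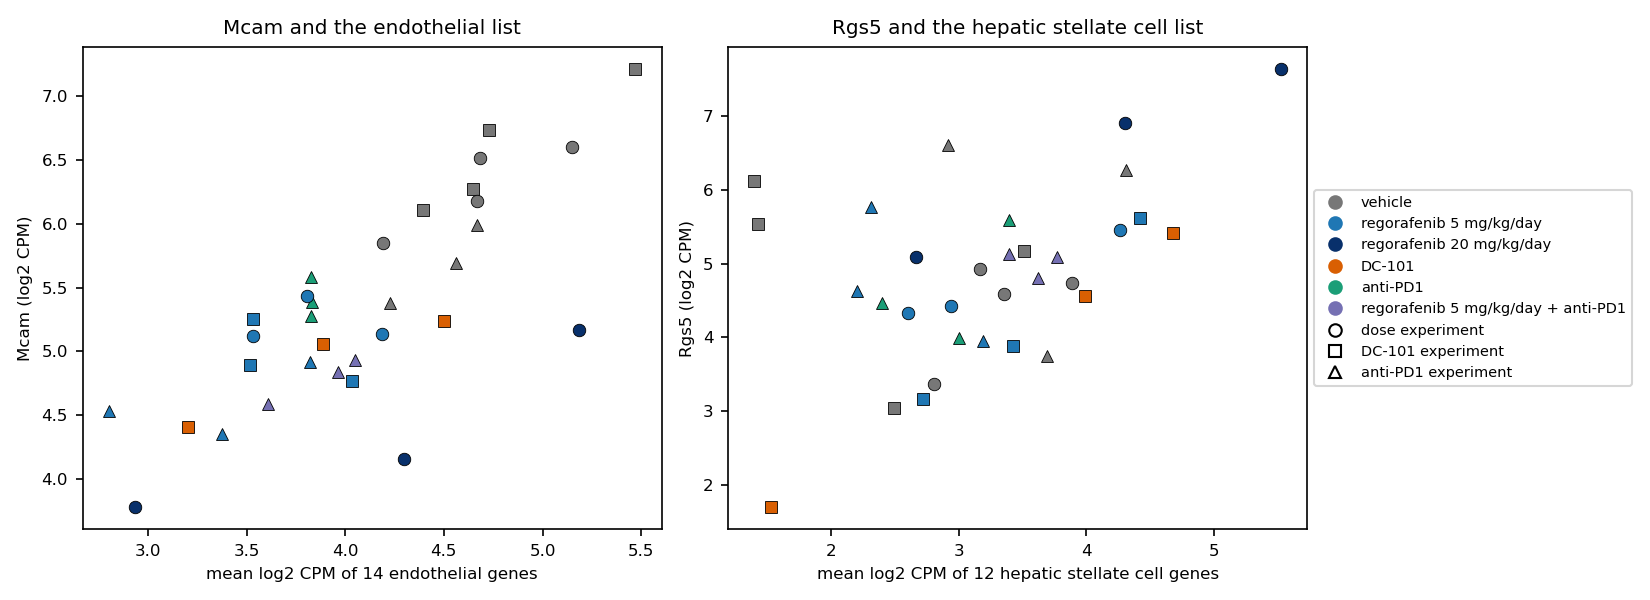
Level of Mcam against the mean of 14 endothelial genes (left) and of Rgs5 against the mean of 12 hepatic stellate cell genes (right), all in log2 CPM, in 32 libraries; color gives the treatment and shape the experiment. Mcam tends to be low where the endothelial list is low, but 1 high-dose tumor (dark blue circle) has the list at 5.18 with Mcam at 5.17, and the highest Rgs5 is in the tumor with the highest stellate list.

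DC-101 was compared with the vehicle libraries that also served low-dose regorafenib in that experiment. No member passed with edgeR (0 of 9, 0% of 16138 genes) or with limma-voom (0), and DESeq2 called Mcam (-1.69) and Acta2 (-0.90) among 372 genes in all. Mcam was 4.41, 5.05 and 5.24 log2 CPM with DC-101, below the 6.11 of the lowest vehicle tumor (-1.71, SE 0.31, adjusted p = 0.309, edgeR). Acta2 was 7.20, 7.63 and 7.79, below the lowest vehicle value of 8.16 (-0.91, SE 0.20, adjusted p = 0.309). These 2 genes were the members with an unadjusted p under 0.05 (13.2% of all genes) and the 2 whose groups did not overlap (13.4% of all genes). The endothelial list had a median change of -1.16, and 8 of its 14 genes had an unadjusted p under 0.05 in the lower direction, where 6.49% of all genes did, with none past the threshold after adjustment (0 with edgeR). The largest were Cldn5 (-1.60) and Cdh5 (-1.56), and the part of endothelial RNA in the Mcam value was not tested.

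Replicate 1 of the DC-101 group stood low in 5 other members. It had the lowest Rgs5 (1.70), Kcnj8 (-0.27), Abcc9 (0.60), Tagln (0.93) and Myh11 (-1.19) of all 32 libraries, and its mesothelial list was the lowest as well (-1.58). Replicate 3 was at 5.42, 3.98, 5.82, 6.70 and 2.78 for the same genes, within or above the range of the vehicle tumors. The hepatocyte list was at 1.88 in replicate 1 and at 8.29 and 9.90 in the others. The changes of these genes were between -0.83 (Kcnj8, SE 0.80) and 0.20 (Tagln, SE 1.09). With the hepatocyte list as a covariate all 5 were lower, from -2.17 (Tagln) to -2.76 (Myh11), and none passed (adjusted p from 0.843 to 0.866, edgeR).

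DC-101 and low-dose regorafenib were given in the same experiment, so their effects were compared directly. No member differed (0 of 9 with edgeR, limma-voom and DESeq2, 0 at unadjusted p under 0.05, against 0% and 8.45% of all genes), and every member overlapped between these groups (11.4% of all genes did not). For Mcam the difference was -0.04 with an interval of 2 SE from -0.67 to 0.58, and for Acta2 0.03 from -0.38 to 0.44. For Kcnj8 it was 0.49 from -1.19 to 2.18, an interval that leaves room for a large difference. That these differences missed the threshold does not show that the agents acted alike.

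Anti-PD1 alone and with low-dose regorafenib were each compared with the 3 vehicle libraries that also served the low dose. With anti-PD1 alone no member passed (0 of 9 with edgeR, 0 with limma-voom and 0 with DESeq2, 0% of 16615 genes). Abcc9 (-1.58, SE 0.62), Kcnj8 (-1.27, SE 0.53) and Acta2 (0.77, SE 0.33) had an unadjusted p under 0.05 (13.7% of all genes), and each of the 9 genes overlapped between the groups (16.6% of all genes did not). Mcam was 5.58, 5.39 and 5.28 log2 CPM with anti-PD1, inside or just below the range of the vehicle tumors (-0.28, SE 0.23).

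With the combination, no member passed with edgeR (0 of 9, 0% of 16615 genes) or limma-voom (0), and DESeq2 called Kcnj8 (-2.09) and Mcam (-0.92) among 150 genes in all. Kcnj8 was 1.92, 2.45 and 2.59 log2 CPM and Mcam 4.84, 4.58 and 4.94, all below their vehicle groups. Acta2 was 9.30, 9.24 and 9.50, above all of its vehicle group (1.01, SE 0.33, adjusted p = 0.49, edgeR). These 3 genes had an unadjusted p under 0.05 (8.2% of all genes). Abcc9 at 3.55, 3.50 and 3.84 was also below the lowest vehicle tumor at 3.92 (-1.16, SE 0.62), giving 4 of 9 members without overlap where 17.7% of all genes had none.

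Set against anti-PD1 alone, the combination moved no member past the threshold (0 of 9 with edgeR, limma-voom and DESeq2, 0% of all genes). Mcam was lower with the combination in every library (-0.63, SE 0.24, unadjusted p under 0.05, as for 8.68% of all genes; adjusted p = 0.494, edgeR), and Cspg4 at 5.62, 6.16 and 6.27 was above 5.29, 5.58 and 5.57 (0.56, SE 0.56), so that 2 of 9 members did not overlap where 30.4% of all genes did not. The endothelial genes went both ways (median 0.10), from -1.31 in Cldn5 to 0.94 in Vwf, and none passed (0 of 14 with edgeR, 2 at unadjusted p under 0.05).

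Because skeletal muscle also makes Des, its values were set beside the skeletal muscle list. In the DC-101 experiment Des was 3.05, 3.22, 2.38 and 6.55 log2 CPM with vehicle, 2.39, 2.98 and 3.79 with low-dose regorafenib and 2.13, 3.09 and 3.95 with DC-101. The value of 6.55, in vehicle replicate 4, was the highest of all 32 libraries. That library had 3335 counts of Acta1, the actin of skeletal muscle, where no other had over 29, and 11 of 12 skeletal muscle genes were highest in it, the exception being Pvalb. The mean of the list was 4.34 there and at most -1.35 elsewhere. That library also had the highest endothelial list (5.47) of the 32. As deviations from group means, Des had r of 0.65 (rho 0.08) with the muscle list, and 0.31 without that library. With the endothelial list r was 0.73 (rho 0.71), and 0.74 without that library. The part of skeletal muscle or endothelial RNA in the Des values was not tested.

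Without that library, the change of Des with the low dose in the DC-101 experiment turned from -1.71 (SE 1.07) to 0.24 (SE 0.51), with DC-101 from -1.64 (SE 1.07) to 0.31 (SE 0.51), and over the 3 experiments it went from -1.15 to -0.51 (adjusted p = 0.513, edgeR). Mcam over the 3 experiments was -1.19 without it (adjusted p = 0.000121) and Kcnj8 -1.76 (adjusted p = 0.00797), so both calls held. Within the DC-101 experiment, Mcam was then at -1.42 with the low dose (adjusted p = 0.199, edgeR) and -1.46 with DC-101 (adjusted p = 0.56).

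**Figure D4:**
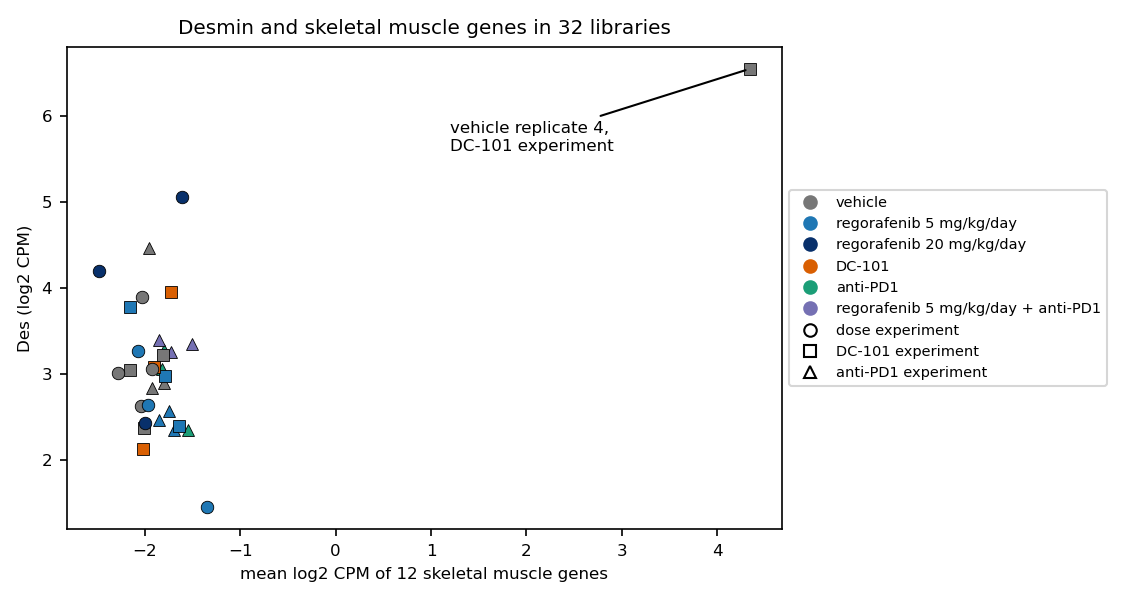
Level of Des against the mean of 12 skeletal muscle genes, both in log2 CPM, in 32 libraries; color gives the treatment and shape the experiment. Vehicle replicate 4 of the DC-101 experiment stands alone at 4.34 and 6.55, and the other 31 libraries lie at or below -1.35 on the muscle axis.

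Among themselves the markers did not move as 1 group. The deviations of the 32 libraries from their group means were compared pair by pair, as a description of libraries that share tumor composition. The channel subunits Kcnj8 and Abcc9 had the highest Pearson's r (0.88, Spearman's rho 0.80). Rgs5 moved with Kcnj8 (0.76, rho 0.79) and Abcc9 (0.66, rho 0.63), and Kcnj8 with Tagln (0.78, rho 0.61). The contractile genes Tagln and Myh11 had 0.69 (rho 0.64). Mcam was above 0 with Rgs5, Kcnj8, Abcc9, Tagln, Myh11 and Des, from 0.29 (Myh11, rho 0.18) to 0.56 (Des, rho 0.41). For Des the muscle library decided the value: with Tagln r was 0.45 over 32 libraries and 0.82 over the 31 others, and with Myh11 0.60 and 0.85.

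Acta2 stood outside that group. Its r was 0.03 with Tagln, -0.10 with Myh11, -0.18 with Des, -0.03 with Rgs5 and -0.08 with Kcnj8, and its highest were 0.33 with Cspg4 (rho 0.10) and 0.27 with Mcam (rho 0.35). Against the cell type lists Acta2 was highest with fibroblasts (0.39, rho 0.34). Cspg4 also followed the fibroblast list (0.56, rho 0.56) and ran against Rgs5 (-0.57, rho -0.53). Abcc9 followed the hepatic stellate cell list (0.84, rho 0.77), the endothelial list (0.76, rho 0.77) and the hepatocyte list (0.66, rho 0.56). Kcnj8 followed the same lists (0.73, rho 0.59, then 0.68, rho 0.66, then 0.63, rho 0.55), and Tagln the mesothelial list (0.65, rho 0.59).

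**Figure D5:**
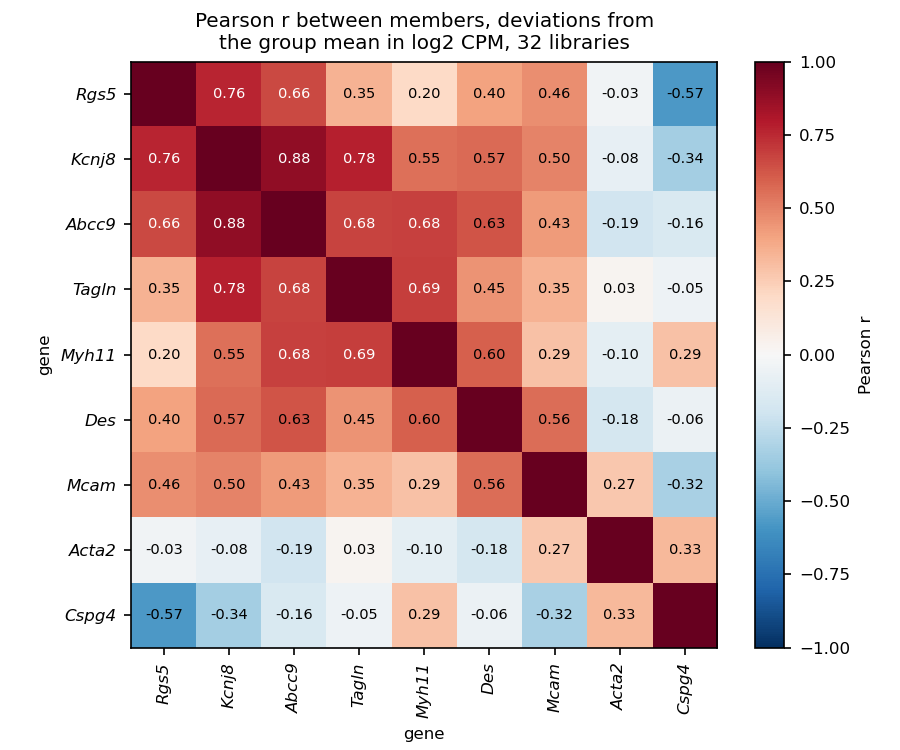
Pearson's r between each pair of the 9 genes, from the deviations of 32 libraries from their group means in log2 CPM; red is positive and blue negative. Rgs5, Kcnj8, Abcc9, Tagln, Myh11 and Des have values above 0 with each other and with Mcam. Acta2 has values between -0.19 and 0.33, and Cspg4 has -0.57 with Rgs5.

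Of 15415 genes tested in all 3 experiments, the 5 whose deviations were most like the mean of the 5 pericyte members were Fhl1 (r 0.95, rho 0.93), Vwf (0.93, rho 0.89), Gm13889 (0.91, rho 0.85), Vstm4 (0.90, rho 0.88) and Susd2 (0.90, rho 0.84). The 5 most like the mean of the 4 contractile members were Svep1 (0.88, rho 0.83), Lmcd1 (0.87, rho 0.84), Gfra2 (0.85, rho 0.75), Bcam (0.81, rho 0.75) and Vgll3 (0.81, rho 0.75), each over 32 libraries. Vwf is the von Willebrand factor gene of endothelial cells and was itself on the endothelial list.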

How the data were processed

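RNA was sequenced from 32 mouse liver tumors and the authors deposited raw counts per gene, made with cutadapt 2.4 and STAR 2.7.2a on GRCm38 per the submitters' processing notes. Of 54446 gene IDs, 54409 matched a symbol of the Gencode annotation (vM21), which gave coordinates and transcript lengths. The libraries of each experiment were fitted together in edgeR 4.0.16 (R 4.3.3) with its filter for low counts (10 per library, 15 in total), TMM scaling, the robust quasi-likelihood F-test and Benjamini-Hochberg adjustment over all genes tested. Low-dose regorafenib was also fitted over the 3 experiments with the experiment as a term. Levels are log2 CPM with a prior count of 2. DESeq2 1.42.0, limma-voom (limma 3.58.1), other scalings, filters, covariates and left-out libraries were tried, and the fits were tested on simulated data.

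The 9 members, the cell type lists and the rule for named genes were chosen with earlier results of these data known. By that rule the text names the 9 members, from each further list at most 4 genes past the threshold in each direction or, where none passed, at most 2 with the largest changes, and the 5 genes whose library deviations were most like each member profile. Outside the rule it also names Notch3, Rgs4, Pdgfrb, Acta1 and Pvalb, and genes at the end of a list's range such as Fap and Vwf. Besides the lists described with the results, the low dose over the 3 experiments moved 0 of 12 fibroblast genes (edgeR, 2 at unadjusted p under 0.05), 0 of 8 mesothelial genes (1 at unadjusted p under 0.05), 0 of 5 skeletal muscle genes tested (0 at unadjusted p under 0.05) and 1 of 20 hepatocyte genes, Ass1 (0.93), past the threshold, where 1.52% of all genes passed it and 15.6% had an unadjusted p under 0.05. Each library was taken as 1 tumor. The p-values rest on a spread between tumors estimated over all groups of a fit, with information shared across genes. In the fit over the 3 experiments that spread also holds any difference of the change between the experiments. Of 36 pairs of libraries within a group, none agreed within sampling noise. Total counts of 16767130 to 27693689 per library set the precision of low genes such as Myh11, whose lowest count was 8. The result of 1 gene of the cell type lists is not reported here.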

Additional observations from a re-analysis of the deposited data

Results flagged for a closer look

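Among the vehicle tumors that served DC-101, Abcc9 had 1 library far from the others: replicate 4 was at 5.33 log2 CPM and the others at 4.42, 4.43 and 4.56. In the same library the mean of the skeletal muscle list was 4.34 log2 CPM, far from the other 3. These were 2 of 36 tests for such a gap, of which chance gives about 1 in 20. The tests covered the members and the further lists in the 2 groups of 4 libraries, the vehicle groups of the dose and DC-101 experiments. Groups of 3 libraries, which include every treated group, were not examined. Both gaps were in the same library, so they are not independent.

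The change of Acta2 with low-dose regorafenib went in opposite directions: every treated library lay above all vehicle libraries in the dose and anti-PD1 experiments and below all of them in the DC-101 experiment. The test of the difference itself did not pass the threshold (adjusted p = 0.377, edgeR).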

How the results depend on the processing

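Of 594 alternative values of the member changes, 555 kept their direction and side of the threshold, 10 fell short of the threshold, 10 newly passed it and 19 turned, and of 864 values with 1 library left out 814, 13, 5 and 32 did so. The cause was not tested. The number of members past the threshold for the high dose, 2 with edgeR, was 3 with DESeq2 (Myh11 being added), 1 with limma-voom, with scaling by the total count and with no filter (Mcam, Rgs5 being lost), 0 with a replicate block, with the hepatocyte level as a covariate and with only the 2 groups compared, and 0 to 5 with 1 library left out. For the high against the low dose it was 2 with DESeq2 and 0 to 5 with 1 library left out. DESeq2 gave 2 for the low dose and 2 for DC-101 in the DC-101 experiment, 3 for the low dose and 2 for the combination in the anti-PD1 experiment, and 1 for the difference between experiments. Without the DC-101 experiment the low dose over the others gave 1. The count of all genes past the threshold for the high dose, 2582, ran from 1 with the replicate block to 5275 with DESeq2, and from 15 to 7030 with 1 library left out.

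The labels' replicate numbers correlated above 0.1 in 2 of 9, 4 of 9 and 6 of 18 pairs of the 3 experiments, so they were not treated as pairs. With the replicate block, the direction turned for Kcnj8 (0.078) and Tagln (0.40) with the high dose, Tagln (-0.43) and Des (0.042) with the low dose and Tagln (-0.91) and Des (0.077) with DC-101 in the DC-101 experiment, and Cspg4 (0.11) with anti-PD1. With limma-voom it turned for Tagln with DC-101 (-0.93) and Cspg4 with anti-PD1 (0.13). With the hepatocyte covariate it turned for Rgs5 (-0.19) and Cspg4 (0.13) with the low dose and Abcc9 (-1.44) and Des (-0.077) with the high dose in the dose experiment, for Tagln with the low dose (-1.53) and DC-101 (-2.17), and for Cspg4 with the low dose (-0.29) and Tagln with anti-PD1 (0.39) in the anti-PD1 experiment. Over the experiments together, Acta2 was -0.084 without the dose experiment and -0.15 without the anti-PD1 experiment.

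With 1 library left out, these changes spanned 0. In the dose experiment, Rgs5 ran from -0.12 to 0.52 with the low dose, and Kcnj8 from -0.48 to 0.35 and Tagln from -0.76 to 0.35 with the high dose. In the DC-101 experiment, Abcc9 ran from -1.81 to 0.10, Tagln from -0.17 to 0.89 and Des from -2.17 to 0.24 with the low dose, and Abcc9 from -1.36 to 0.55, Tagln from -1.51 to 0.96, Myh11 from -1.83 to 0.065 and Des from -2.20 to 0.31 with DC-101. In the anti-PD1 experiment, Cspg4 ran from -0.18 to 1.05 and Myh11 from -1.30 to 1.24 with the low dose, Cspg4 from -0.53 to 0.65, Tagln from -0.74 to 0.28, Myh11 from -1.38 to 0.84 and Des from -0.96 to 0.082 with anti-PD1, and Tagln from -0.58 to 0.23, Myh11 from -0.22 to 2.02 and Des from -0.57 to 0.48 with the combination. Over the 3 experiments Cspg4 ran from -0.25 to 0.043.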
